A study of Mus musculus with 10 samples.

Results

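The genes described here are 8 markers of lymphatic endothelial cells, Prox1, Lyve1, Pdpn, Mmrn1, Reln, Nr2f2, Stab1 and Stab2, chosen by name from the 56748 genes of the count table. RNA-seq was performed on primary differentiated adipocytes in cultures of 2 genotypes, with 5 control (Fam20c-flox) and 5 KO (Fam20c-flox/Adipoq-Cre) libraries, so the floxed Fam20c allele was present in both groups and the Cre transgene in the KO group only. The methods describe the cells as stromal vascular fractions of inguinal fat from male mice of 6 to 8 weeks, backcrossed to C57BL/6J and differentiated for 6 to 8 days with a cocktail containing rosiglitazone. Adipoq-Cre is driven by the adiponectin promoter, which is active in mature adipocytes, and the unsorted stromal vascular fraction also brings progenitors, endothelial cells and macrophages into the culture. The question was whether the lower expression of endothelial genes in the KO cultures extended to lymphatic markers.

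Lymphatic endothelium lines the vessels that drain fluid, immune cells and dietary lipid from tissues. Its identity is set by the transcription factor PROX1, which venous endothelial cells switch on with the help of SOX18 and NR2F2 (COUP-TFII), and its growth is driven by the ligands VEGFC and VEGFD through the receptor FLT4 (VEGFR3). Few of its markers are unique to it. LYVE1 and the scavenger receptor STAB1 are also found on tissue macrophages, podoplanin (PDPN) on fibroblasts, NR2F2 in veins and stromal cells, and STAB2 on the sinusoidal endothelium of the liver and spleen.

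The cultures had 18949106 to 26237825 counts per library in the control group and 19883101 to 23291792 in the KO group. Fam20c, the targeted gene, ranged from 8.86 to 11.9 CPM (counts scaled to a fixed TMM-normalized library size) in control and from 6.65 to 7.74 CPM in KO libraries, with a log2 fold change of -0.49 and a standard error of 0.0929 (adjusted p = 0.0137). Each adjusted p here is from the quasi-likelihood test of edgeR after Benjamini-Hochberg adjustment over all genes tested. The adipocyte marker Adipoq averaged 1759 ± 81.2 CPM in controls against 1820.4 ± 41.5 CPM in KOs (SD, n = 5). The labels do not say whether each culture came from its own mouse, so p-values measure the spread between these libraries, which may be technical. In bulk RNA, fewer cells of a type and less RNA per cell cannot be told apart.

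All 8 markers were detected in all 10 libraries, and 2 of the 8, Mmrn1 and Stab2, fell in the KO cultures. Among the 14270 genes tested, 1.86% were called lower and 2.17% were called in either direction. Levels per kilobase of exon spanned a wide range. In control cultures, Pdpn stood highest at 18.0 ± 4.58 CPM per kilobase (SD, n = 5), followed by Lyve1 at 10.3 ± 4.10, Stab1 at 5.17 ± 1.10 and Nr2f2 at 2.71 ± 0.134 CPM per kilobase. The remaining genes were far lower, with Mmrn1 at 0.590 ± 0.143, Stab2 at 0.244 ± 0.0542, Prox1 at 0.0857 ± 0.0210 and Reln at 0.0591 ± 0.0104 CPM per kilobase. The control ranges of Pdpn and Lyve1, of Lyve1 and Stab1, and of Prox1 and Reln overlapped, and those of the other neighbors in this order did not.

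**Figure D1:**
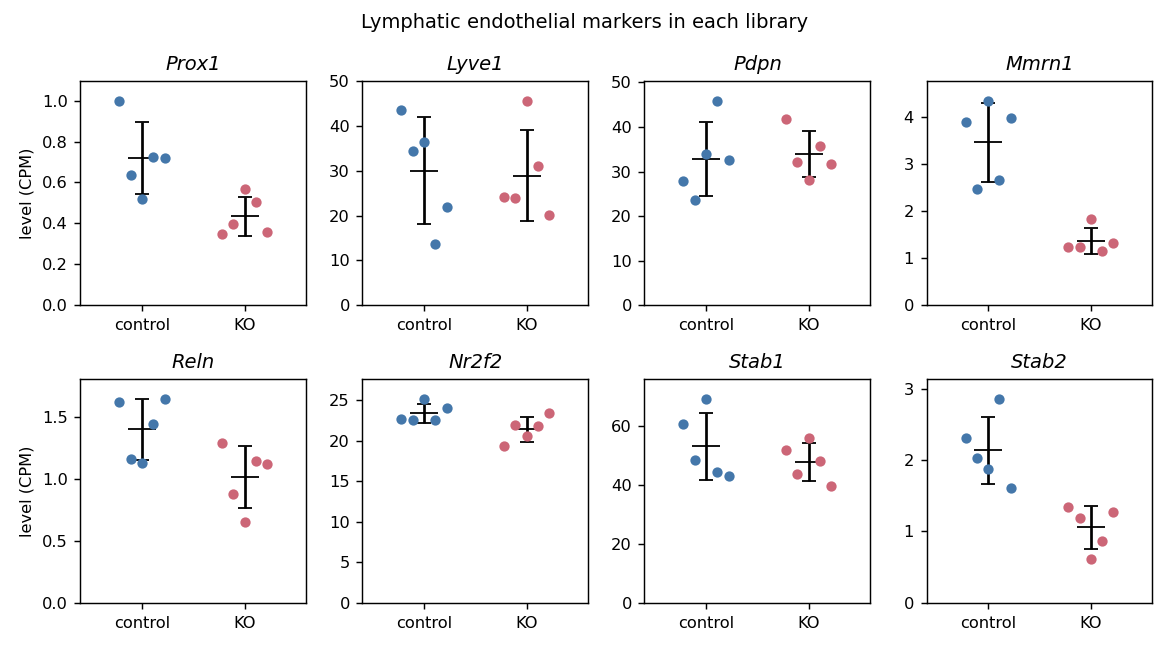
Level of each of the 8 lymphatic markers in CPM (y axis, from 0) in the 5 control and 5 KO libraries, with points for libraries, horizontal marks for group means and bars for SDs. For Mmrn1 and Stab2 the KO points lie below all control points, and for the other 6 genes the groups overlap.

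Prox1, the master regulator of lymphatic identity, was read from few fragments, with 7 to 19 counts per library. Its level was 0.996, 0.637, 0.517, 0.725 and 0.719 CPM in controls 1 to 5, against 0.347, 0.395, 0.567, 0.504 and 0.356 CPM in KOs 1 to 5. KO library 3 lay above control library 3, and the other KO libraries lay below each control library. For Prox1 the log2 fold change was -0.70, with a 95% interval from -1.21 to -0.18, and the gene did not pass the limit over all genes tested (standard error 0.237, unadjusted p = 0.0118, adjusted p = 0.213). At this depth, a decrease as large as that of Mmrn1 lay outside the interval for Prox1, while one as large as that of Stab2 lay inside it.

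Nr2f2, the venous and stromal transcription factor that acts upstream of Prox1, had 22.7, 22.5, 25.1, 22.5 and 24.0 CPM in control and 19.3, 21.9, 20.5, 21.8 and 23.5 CPM in KO libraries. KO library 5 was within the control range and the other KO libraries were below it. Its log2 fold change of -0.13 had a 95% interval from -0.26 to 0.01 and did not pass the limit (standard error 0.0607, adjusted p = 0.448). Nr2f2 was the least variable of the 8 genes, with a coefficient of variation of 4.97% in control and 7.26% in KO libraries.

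Mmrn1 encodes multimerin 1, a large secreted adhesive protein of platelets and endothelium that marks lymphatic endothelial cells. It showed the strongest decrease of the 8 genes. Its level was 3.88, 2.47, 4.33, 2.66 and 3.97 CPM in control libraries and 1.24, 1.23, 1.83, 1.15 and 1.32 CPM in KO libraries. The highest KO value was below the lowest control value. The mean was 3.46 ± 0.837 CPM in controls and 1.35 ± 0.275 CPM in KOs (SD, n = 5), or 39.1% of the control mean, and the fitted log2 fold change was -1.34 with a standard error of 0.198 (adjusted p = 0.00264). Mmrn1 kept its call in each of the 10 fits that left out 1 library.

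Stab2, a scavenger receptor for hyaluronan, also fell, although on 14 to 59 counts per library. Its level was 2.31, 2.02, 1.88, 2.85 and 1.61 CPM in control libraries and 1.34, 1.19, 0.611, 0.870 and 1.27 CPM in KO libraries. The groups did not overlap. On the log2 scale Stab2 fell by 1.01 with a standard error of 0.223 (adjusted p = 0.0325), with means of 2.13 ± 0.475 and 1.06 ± 0.307 CPM (SD, n = 5). Stab2 was close to the limit, and leaving out any one of control libraries 1, 2 and 3 or KO libraries 2, 3, 4 and 5 raised its adjusted p to between 0.0566 and 0.0927, with the log2 fold change between -1.09 and -0.86. It passed without control library 4, control library 5 or KO library 1. Among the 8 genes, only Mmrn1 and Stab2 had groups that did not overlap, and of the 14270 genes 2.66% had all KO libraries below all control libraries and 1.31% had them above.

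The windows before the start of the 2 markers that fell are shown so that motifs of endothelial factors can be read in them. RefSeq start-site windows on GRCm38.p6 matched 7 of the 8 markers, and motifs were counted only in the windows of these 2. Capitals mark the ETS core GGAA and the SOX core ACAAT on either strand, the binding letters of the factor families to which ERG and SOX18 belong, and no base lay in both motifs.
Mmrn1: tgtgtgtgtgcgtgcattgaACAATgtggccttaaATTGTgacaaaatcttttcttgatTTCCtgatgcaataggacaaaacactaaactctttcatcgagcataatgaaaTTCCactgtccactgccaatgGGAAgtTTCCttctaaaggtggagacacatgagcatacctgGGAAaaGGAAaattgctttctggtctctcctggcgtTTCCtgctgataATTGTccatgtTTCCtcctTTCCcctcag
Stab2: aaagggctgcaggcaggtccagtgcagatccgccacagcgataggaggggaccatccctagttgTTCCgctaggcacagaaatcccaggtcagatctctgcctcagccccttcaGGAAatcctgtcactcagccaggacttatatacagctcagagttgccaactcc
The Mmrn1 window, chr6:60944067-60944316 on the plus strand, held 9 ETS and 3 SOX cores. An ETS core was found in 93.4% of the 32851 windows of this length and at least 9 in 0.505%, and a SOX core was found in 27.7% and at least 3 in 1.35%. The RefSeq start that follows it coincides with the start of an internal exon in GENCODE M21, 19341 bases after the first annotated base of the gene. In that annotation the window lies inside the gene, directly before an internal exon. Its use as a promoter was not tested, so these core counts may not be those of a promoter. The Stab2 window, chr10:87008026-87008192 on the minus strand, stops before the first annotated exon base and held 2 ETS cores and 0 SOX cores. At its length, an ETS core was found in 84.7% of windows, at least 2 in 56.5%, and a SOX core in 20.3%.

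Stab1, the paralog of Stab2 that macrophages also express, was at 60.7, 48.3, 69.1, 44.5 and 43.1 CPM in control and 51.7, 43.7, 56.0, 48.1 and 39.8 CPM in KO libraries. KO library 5 was the lowest of the 10, and the other KO libraries lay within the control range. The Stab1 log2 fold change of -0.15 had a 95% interval from -0.43 to 0.14 (standard error 0.132, adjusted p = 0.756), so that a 2-fold decrease lay outside it. No 50-base word of the Stab2 transcripts was found in the Stab1 transcripts, so reads of this length can be told apart between the paralogs.

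Lyve1, the hyaluronan receptor of lymphatic endothelium and of a subset of macrophages, had 43.5, 34.5, 36.4, 13.7 and 21.9 CPM in control and 24.2, 23.8, 45.5, 31.1 and 20.1 CPM in KO libraries. The lowest library was a control and the highest was a KO library. A log2 fold change of -0.05 was small against the spread between libraries, and its 95% interval ran from -0.66 to 0.57 (standard error 0.283, adjusted p = 0.980). The coefficient of variation was 39.9% in control and 34.7% in KO libraries, the highest of the 8 genes in both groups.

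Pdpn, the mucin-like ligand of the platelet receptor CLEC-2, had 27.8, 23.7, 34.0, 45.7 and 32.7 CPM in control and 41.9, 32.2, 28.2, 35.7 and 31.7 CPM in KO libraries. The KO range lay inside the control range. Its log2 fold change was 0.05, with a 95% interval from -0.28 to 0.38 (standard error 0.154, adjusted p = 0.956).

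Reln encodes reelin, a secreted matrix glycoprotein produced by collecting lymphatic vessels. It had 1.63, 1.16, 1.13, 1.45 and 1.65 CPM in control and 1.29, 0.878, 0.655, 1.15 and 1.12 CPM in KO libraries, on 15 to 39 counts. The groups overlapped, with KO libraries 2, 3 and 5 below all control libraries. For Reln the log2 fold change of -0.47 had a 95% interval from -0.91 to -0.02 and did not pass the limit (standard error 0.203, unadjusted p = 0.0400, adjusted p = 0.381).

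In all, 2 of the 8 markers were called lower and 0 were called higher, where 1.86% and 0.308% of all genes tested were called lower and higher. The median log2 fold change was -0.31 over the 8 markers and 0.00 over all genes. At an unadjusted p under 0.05, 4 markers were lower and 0 were higher, against 7.46% and 4.43% of all genes. DESeq2 and limma voom with sample quality weights each called the same 2 markers lower and 0 higher.

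The 18 pan-endothelial and blood vessel genes used for comparison were already known from earlier results of these data to be low in KO cultures. Of the 17 tested, 14 fell, 0 rose, and the median log2 fold change was -1.24. Among all genes tested, 1.86% were called lower and 0.308% higher. The genes of the list that were tested and not called were Tek, Vwf and Flt1, with log2 fold changes of -0.19, -0.39 and -0.48. Pecam1 (CD31) fell from 42.0 ± 4.71 to 18.0 ± 4.06 CPM and Cdh5 (VE-cadherin) from 53.1 ± 5.11 to 22.1 ± 3.67 CPM (SD, n = 5), with log2 fold changes of -1.23 and -1.27. The fold change of Mmrn1 was within the range of this list and close to those of its relative Mmrn2 (-1.39) and of Emcn (-1.29), a sialomucin of capillaries and veins.

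**Figure D2:**
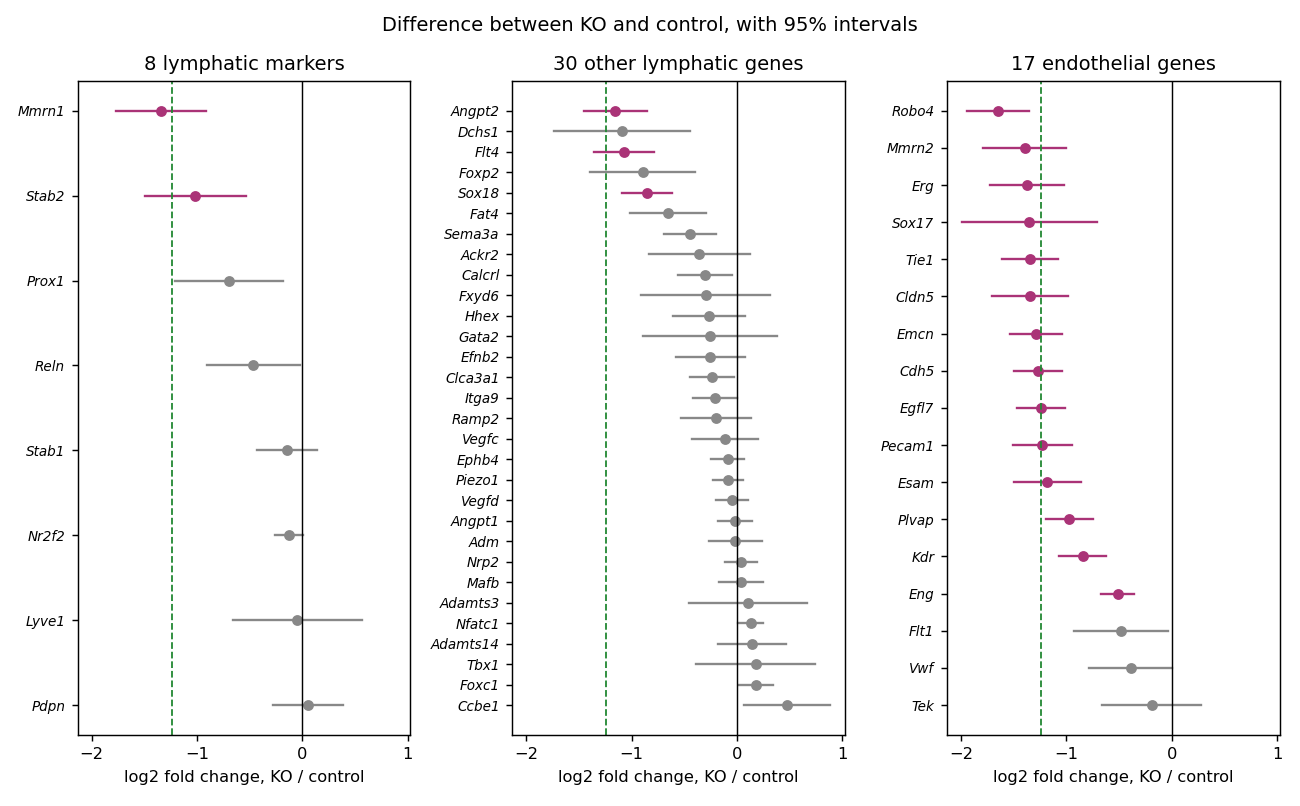
Log2 fold change between KO and control (x axis) with its 95% interval for the 8 lymphatic markers, the 30 other lymphatic genes tested and the 17 endothelial genes tested, purple past the adjusted limit and gray otherwise, with a dashed green line at the endothelial median of -1.24. Mmrn1 and Stab2 sit near that line and Stab1, Nr2f2, Lyve1 and Pdpn near 0.

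To set each marker beside the endothelial genes, its log2 CPM was expressed relative to the mean log2 CPM of the 17 endothelial genes in the same library. That mean was itself 1.05 lower in KO on the log2 scale, and the list was known to be low in these libraries. A gene with equal levels in both groups therefore comes out about that much higher in KO on this scale, and the values are given as a description with no test. Relative to the endothelial mean, Mmrn1 differed by -0.24 between KO and control and Stab2 by 0.07, and for both genes the groups overlapped.

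On the same relative scale, Prox1 was 0.43 higher in KO and Reln 0.60 higher, with overlapping groups. Pdpn was 1.12 higher, Nr2f2 0.92 higher and Stab1 0.91 higher, without overlap, and Lyve1 was 1.05 higher with overlap. These last 4 values are near the size of the difference in the endothelial mean alone.

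**Figure D3:**
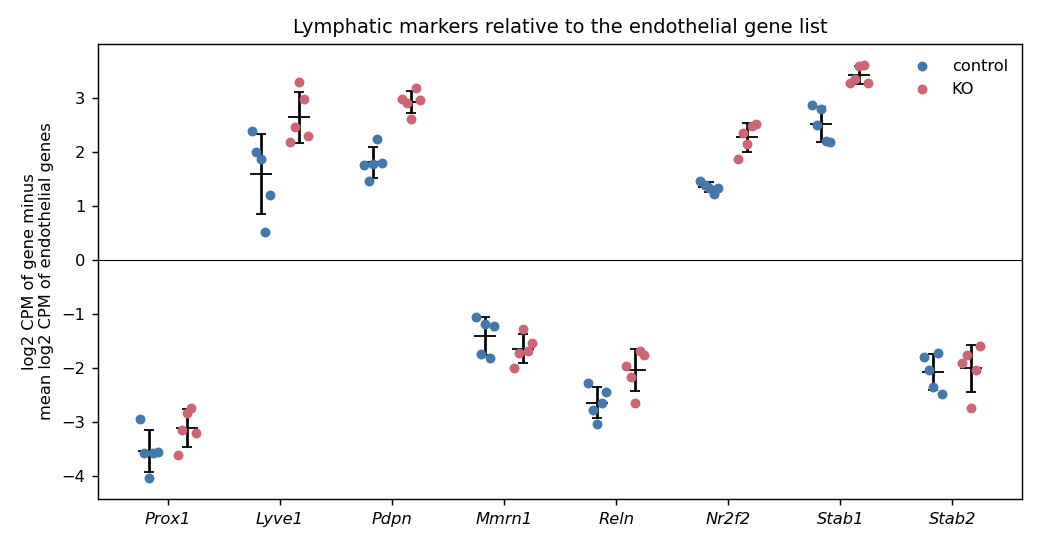
Log2 CPM of each lymphatic marker minus the mean log2 CPM of the 17 endothelial genes (y axis) in each control (blue) and KO (red) library, with the group mean and SD in black. Stab1, Nr2f2 and Pdpn separate completely, with KO above control, while Mmrn1 and Stab2 overlap between the groups. The endothelial mean itself differed by -1.05 between KO and control. A gene with equal levels in both groups therefore comes out higher in KO on this scale.

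Other genes of lymphatic growth and identity were tested in the same fit. Of 37 genes in 5 lists, 30 were tested, 3 fell and 0 rose, and their median log2 fold change was -0.20. Among all 14270 genes tested, 1.86% were called lower and 0.308% higher. At an unadjusted p under 0.05 by edgeR, 10 of the 30 were lower and 3 higher, against 7.46% and 4.43% of all genes. DESeq2 called 6 of the lymphatic genes lower, and limma voom called 5 lower and 1 higher. Over all genes, DESeq2 called 359 lower and 125 higher, and limma voom 347 lower and 111 higher. The 3 genes that fell by edgeR were Flt4, Sox18 and Angpt2, which blood endothelial cells also express. Flt4, the receptor for VEGFC and VEGFD, was at 6.40, 6.00, 7.05, 7.59 and 7.36 CPM in control and 3.72, 3.07, 3.84, 2.29 and 3.41 CPM in KO libraries, without overlap. Flt4 fell by 1.07 on the log2 scale, with a standard error of 0.132 (adjusted p = 0.000782).

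Sox18, which induces Prox1 in embryonic veins, had a log2 fold change of -0.86, from 11.0 ± 1.45 to 6.08 ± 0.727 CPM (SD, n = 5). Angpt2, a TIE2 ligand made by endothelial cells and required for lymphatic remodeling, had a log2 fold change of -1.15, from 37.0 ± 5.19 to 16.6 ± 3.63 CPM (SD, n = 5). Each was called in all 10 fits that left out 1 library, as was Flt4.

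The FLT4 ligands Vegfc and Vegfd did not pass the limit. Vegfd averaged 147.2 ± 12.4 CPM in controls against 142.4 ± 13.1 CPM in KOs (SD, n = 5), and its log2 fold change was -0.05 with a 95% interval from -0.20 to 0.11. For Vegfc, at a control mean of 6.68 CPM and a KO mean of 6.19 CPM, it was -0.11 with a standard error of 0.145. Nrp2, the co-receptor of FLT4 that stromal cells also express, had a log2 fold change of 0.04 (95% interval from -0.11 to 0.19). Ccbe1, which promotes the processing of VEGFC, had a log2 fold change of 0.47 and did not pass the limit (unadjusted p = 0.0273, adjusted p = 0.320 by edgeR). Dchs1, Foxp2, Fat4 and Sema3a had log2 fold changes of -1.09, -0.90, -0.65 and -0.45. They did not pass the limit either (adjusted p from 0.0728 to 0.0951 by edgeR), and only for Foxp2 did the groups not overlap. Ccl21a, a chemokine that lymphatic endothelium secretes to attract dendritic cells, had 0 or 1 count in each library and was too low to be tested, as were 6 other genes of these lists.

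By the measure of likeness used, the root mean square difference between log2 CPM profiles centered on their own mean over the 10 libraries, the genes most like Mmrn1 were Emcn (0.193), Gpihbp1 (0.199), which anchors lipoprotein lipase to capillary endothelium, and St8sia4 (0.223), a polysialyltransferase. Those most like Stab2 were Plekhg1 (0.184), Scn3a (0.248) and Cenpf (0.264). The measure includes the difference between the groups, so genes picked as like a marker that fell tend to be lower in KO by the choice itself. All 6 had a lower mean in KO, and Scn3a and Cenpf did not pass the limit on their own (adjusted p = 0.111 and 0.467).

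Markers of other cells that express these genes were followed in the same libraries. Of 16 macrophage genes, 15 were tested, 1 fell and 0 rose, where 1.86% and 0.308% of all genes tested were called lower and higher. The summed level of the 16 genes ranged from 1563 to 2368 CPM in control and from 1370 to 2250 CPM in KO libraries. The defining markers Adgre1, Cd68, Csf1r and Mrc1 had log2 fold changes of -0.09, -0.02, 0.09 and -0.11 and did not pass the limit. The gene that fell was Cd163, a scavenger receptor for hemoglobin, from 44.4 ± 5.58 to 30.3 ± 3.53 CPM (SD, n = 5).

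Lyve1 and the macrophage mannose receptor gene Mrc1 ordered the libraries alike, which was noticed after the values were seen. Mrc1 had 126.2, 106.5, 106.4, 71.7 and 80.4 CPM in control and 90.0, 82.4, 119.3, 93.9 and 67.5 CPM in KO libraries. The 3 libraries lowest for Lyve1 (control 4, control 5 and KO 5) were the 3 lowest for Mrc1, and the 4 highest for Lyve1 (controls 1, 2 and 3 and KO 3) were the 4 highest for Mrc1. Lyve1 was at 0.192 to 0.381 of the level of Mrc1 in each library. Mrc1 was singled out of the 16 macrophage genes, and others ordered the libraries differently. KO library 1 was the highest for Csf1r at 47.8 CPM and for Cd68 at 107.2 CPM, and it was the second highest for Adgre1 at 99.3 CPM, while Lyve1 was at 24.2 CPM there. Control library 2 was the third lowest for Adgre1 at 69.5 CPM and among the 4 highest for Lyve1. The parts of macrophages and of lymphatic endothelium in the Lyve1 and Mrc1 values were not tested.

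**Figure D4:**
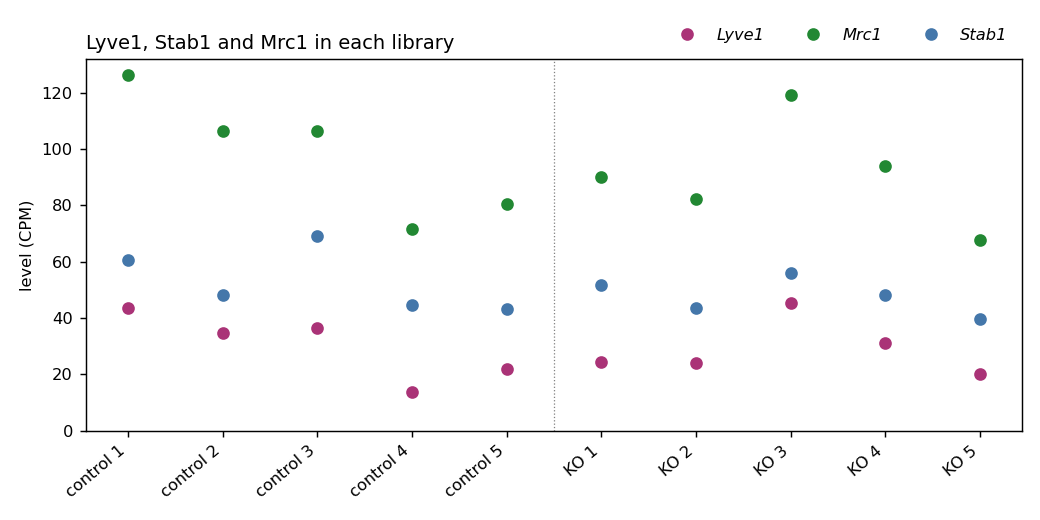
Levels of Lyve1, Stab1 and Mrc1 in CPM (y axis, from 0) in each of the 10 libraries (x axis; the dotted line separates control from KO). Lyve1 is highest in KO 3 and control 1 and lowest in control 4 and KO 5, and the same libraries are the highest and the lowest for Mrc1.

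Of 11 fibroblast and progenitor genes, which share tissue with Pdpn and Nr2f2, 5 fell and 0 rose. Those that fell were Pdgfra, Cd34, Lum, Col1a1 and Col3a1, and the median log2 fold change of the 11 was -0.38. The shares of all genes tested called lower and higher were 1.86% and 0.308%. Cd34 fell most, with a log2 fold change of -0.91, and which cells its RNA came from was not tested. Col1a1 was close to the limit (adjusted p = 0.0473 by edgeR) and passed in only 2 of the 10 fits that left out 1 library, and Col3a1 passed in 7, while the other 3 genes passed in all 10. Pdgfra, a progenitor receptor, had a log2 fold change of -0.31, from 222.7 ± 13.6 to 179.4 ± 11.6 CPM (SD, n = 5). Their summed level ranged from 5109 to 6589 CPM in control and from 4262 to 5060 CPM in KO libraries. None of the 6 pericyte, 2 mesothelial, 2 lymphocyte and lymph node or 7 adipocyte genes tested was called by edgeR. At an unadjusted p under 0.05, 4, 0, 0 and 0 of them were lower and 0, 0, 1 and 3 higher. The shares of all genes tested at that p were 7.46% lower and 4.43% higher.

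Mesothelial Msln was at 0 to 0.132 CPM and the T cell gene Cd3e at 0 to 0.0992 CPM. Upk1b, Cd3d and Ms4a1 had 0 counts in all libraries, which allows up to 3 counts over the 10 libraries or 0.0137 CPM. The inguinal depot contains a lymph node. Of the stromal chemokines of lymph nodes, Cxcl13 was detected at 25.3 to 40.1 CPM, with a log2 fold change of 0.23 that did not pass the limit (unadjusted p = 0.0369, adjusted p = 0.368 by edgeR), and Ccl19 was detected in each library at 1 to 12 counts.

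The 8 genes lie on 7 chromosomes. In GENCODE M21 on GRCm38, Prox1 spans chr1:190118035-190170714, Lyve1 chr7:110850607-110863239, Pdpn chr4:143267431-143299564, Mmrn1 chr6:60924976-60989378, Reln chr5:21884454-22344702, Nr2f2 chr7:70351944-70366735, Stab1 chr14:31139013-31168641 and Stab2 chr10:86841198-87008025. Mmrn1 is on the plus strand and the others are on the minus strand. Exons of Nr2f2 overlap the opposite-strand gene B130024G19Rik over 7.46% of their length. Exons of Prox1, Reln, Stab1 and Stab2 overlap opposite-strand genes over 1.04% to 1.61%, while those of Lyve1, Pdpn and Mmrn1 overlap no other gene. The strand setting of the counting is not given in the sources used here, so fragments there may be shared.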

How the data were processed

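Paired-end reads were mapped by the authors with STAR to GRCm38.p6, fragments were assigned to Ensembl genes with featureCounts, and the raw counts of 56748 genes in 10 libraries were deposited without normalization, filtering or pooling. The labels name mm10. Gene identifiers were matched to GENCODE M21 without their version (52125 matched, against 35 with it), so the deposited counts were made with another release. Whether that release was on the named genome build was not tested. Positions, exon overlaps and exon lengths are those of M21 and may differ from those used in the counting.

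Counts were tested with edgeR 4.0.16 in R 4.3.3 (filterByExpr with a minimum count of 10, TMM, quasi-likelihood test, KO against control without pairing, 14270 genes tested, Benjamini-Hochberg adjustment over all of them, limit 0.05). The study itself used DESeq2, run here as an alternative. CPM used TMM library sizes, log2 CPM a prior count of 2, and 95% intervals the test's standard error and are not adjusted. Levels relative to the endothelial mean were put through 2-sided exact permutation tests. No statement rests on them because the reference list was known to be low, and their counts are given only to show how they depend on the processing. Counting error is largest for genes of few counts. Libraries of a group differed by more than sampling noise (lowest chi-square divided by its degrees of freedom, 3.52).

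The members and gene lists were chosen with earlier results of these data known. The genes named by rule are the 8 markers, genes of the lists past the limit, a fixed set of defining markers and lymphatic genes, and the 3 genes most like each called marker. Named outside that rule were Ccbe1, Dchs1, Foxp2, Fat4, Sema3a, Tek, Vwf, Flt1, Cxcl13, Ccl19, Upk1b, Cd3d and Ms4a1. The alternatives were DESeq2 1.42.0, limma 3.58.1 voom with quality weights, RLE or no size factors, low-count filters, a block for the replicate number and each library left out in turn. The scripts were tested on simulated counts.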

Additional observations from a re-analysis of the deposited data

Results flagged for a closer look

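Single libraries that stood away from the other 4 of their group were sought with Dixon's test, whose critical ratio of 0.71 is passed by about 5% of groups by chance. Of 82 groups of named genes, 2 were above it where chance gives 4.10. Mmrn1 in KO library 3 was at 1.83 CPM against 1.15 to 1.32 CPM in the other KO libraries (ratio 0.741), which is still below the lowest control library at 2.47 CPM, and without this library its log2 fold change was -1.48. Lum in control library 4 was at 30.4 CPM against 41.6 to 45.8 CPM in the other control libraries (ratio 0.728).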

How the results depend on the processing

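Mmrn1 passed under every alternative tried and Stab2 under every one other than the replicate block (adjusted p = 0.0786) and 7 of the 10 fits that left out 1 library. The number of markers called lower was thus 1 with the replicate block and 1 to 2 with a library left out. The cause was not tested. A minimum count of 30 left Prox1 and Reln out of the test.

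Replicate numbers are shared by the groups in the labels, but same-numbered libraries did not deviate together (correlations from -0.25 to 0.26, with 1 of the 5 control libraries correlating best with its own number). The replicate block left 193 genes lower and 21 higher, against 265 and 44 without it. For levels relative to the endothelial mean, 5 of 8 markers had an exact permutation p under 0.05, 0 in a sign-flip test over same-numbered libraries, which cannot go below 0.0625, and 3 to 6 with a library left out (3 without control library 4 or KO library 4). These tests support nothing here, since the reference genes were known to be lower in KO and a gene with equal levels in both groups could therefore pass.

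For other lymphatic genes, 6 were called lower with DESeq2, 5 with limma voom and 5 without the low-count filter, and 1 was called higher with limma voom. With a library left out, 3 to 4 were called lower and 0 to 1 higher. Over the whole table, 359 genes were called lower with DESeq2 and 347 with limma voom, of 14270 tested. Without the low-count filter, 286 of 27306 genes were lower. Genes called higher over the whole table numbered 125 with DESeq2 and 111 with limma voom. With a library left out, 164 to 323 genes were lower and 19 to 119 higher. Of the genes of other cell types, 2 were called higher with DESeq2, 1 with limma voom and 0 to 1 with a library left out. With a library left out, the log2 fold change ranged from -0.27 to 0.12 for Lyve1, from -0.049 to 0.20 for Pdpn, from -0.0021 to 0.094 for Nrp2, from -0.17 to 0.019 for Adgre1 and from -0.15 to 0.066 for Cd68. That of Csf1r was -0.0065 with limma voom. Stab2 relative to the endothelial mean ranged from -0.036 to 0.25. Sox17 passed in 3 of the 10 fits that left out 1 library, Col1a1 in 2 and Col3a1 in 7, and Col1a1 missed the limit with RLE size factors (adjusted p = 0.0508) and the replicate block (adjusted p = 0.0993).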
